A study of Homo sapiens with 9 samples.

Results

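The IER genes IER5, IER5L, IER2 and IER3 were followed through heat shock and recovery in U937, a human lymphoma cell line that carries monocyte markers. The members were chosen by gene symbol, with the responses of these genes on the same 9 arrays already known. They are 4 of 19775 genes, measured by 5 of 54675 probe sets that the platform annotation assigns to 1 of these symbols alone. IER5 had been singled out as a target of the heat shock factor HSF1 and the others as serum response genes, so the signals and folds of the members over control are given as a description.

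Cells were held for 15 min at 42 or 44 °C and then returned to 37 °C for 0, 1, 3 or 6 h, and unheated cells kept at 37 °C were the control. Total RNA of each of these 9 conditions was hybridised to 1 Human Genome U133 Plus 2.0 array, a 3′ expression array whose probe sets each report 1 signal. No condition was replicated, so the number of arrays limits the precision. No test was run, and a gene is said to have risen or fallen when its signal differed at least 2-fold between arrays. The control label gives no time, so changes at 1, 3 and 6 h cannot be told apart from changes with time in culture, and all 8 comparisons with the control share its single array. In bulk RNA, fewer cells of a type and less RNA per cell cannot be told apart.

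Immediate early response genes are transcribed within minutes of a growth or stress signal without new protein synthesis, and many of them carry binding sites for the serum response factor SRF. IER2, IER5 and IER5L share a conserved domain at the N terminus and bind the B55 form of the phosphatase PP2A. IER5 is itself transcribed by HSF1 under heat stress and brings PP2A to HSF1, which favours the dephosphorylated, active form of that factor. IER3, also called IEX-1, is a different kind of protein, a stress-inducible regulator of cell survival whose gene is a target of NF-kB and p53.

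The promoters are shown because IER5 and IER5L carry the same heat shock motif letters at nearly the same place. Their signals moved differently, and the part of the motif in them was not tested. Each window covers 250 bases before to 50 bases after the annotated start in RefSeq (GRCh38.p14), 5′ to 3′ on the strand of the gene, with matches in capitals. Of the members, 3 of 4 were matched in the promoter table; IER3 was not. IER5 lies at chr1:181088450-181088749 on the + strand, IER5L at chr9:129178212-129178511 on the - strand and IER2 at chr19:13150161-13150460 on the + strand.
IER5: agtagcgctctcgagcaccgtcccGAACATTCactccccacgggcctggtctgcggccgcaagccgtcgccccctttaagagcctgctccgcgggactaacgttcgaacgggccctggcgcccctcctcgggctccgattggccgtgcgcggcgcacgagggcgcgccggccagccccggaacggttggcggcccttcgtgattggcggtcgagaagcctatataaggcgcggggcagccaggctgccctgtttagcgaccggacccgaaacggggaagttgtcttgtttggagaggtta
IER5L: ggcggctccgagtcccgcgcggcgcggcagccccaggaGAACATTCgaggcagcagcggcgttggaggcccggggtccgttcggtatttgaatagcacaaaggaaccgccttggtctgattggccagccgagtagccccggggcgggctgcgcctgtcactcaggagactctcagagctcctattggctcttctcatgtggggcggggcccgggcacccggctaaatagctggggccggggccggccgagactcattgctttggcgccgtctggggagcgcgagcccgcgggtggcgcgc
IER2: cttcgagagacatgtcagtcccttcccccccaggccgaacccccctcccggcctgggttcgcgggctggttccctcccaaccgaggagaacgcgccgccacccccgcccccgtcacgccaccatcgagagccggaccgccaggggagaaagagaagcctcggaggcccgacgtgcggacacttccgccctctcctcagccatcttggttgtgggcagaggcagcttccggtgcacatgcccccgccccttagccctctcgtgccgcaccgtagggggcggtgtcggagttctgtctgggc

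The motifs searched, on both strands, were the inverted heat shock repeats GAANNTTC and TTCNNGAA, which may overlap each other, the CArG box bound by SRF, the cAMP response element core TGACGTCA and the TATA core TATAAA. IER5 held GAACATTC from 226 to 219 bases before its start, and IER5L held GAACATTC from 212 to 205 bases before its start. Among all 35116 windows of 300 bases, 6.77% held GAANNTTC, 7.74% held TTCNNGAA and 13.5% held either. IER2 held neither. The CArG box (1.29% of all windows), TGACGTCA (1.85%) and TATAAA (11.5%) were not found in these windows of IER5, IER5L or IER2. A match is a run of letters, and a window without one says nothing about the factor.

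After scaling of each array to a common trimmed mean (factors 0.474 to 0.989), the signal floor was set at 12.5, their overall median, and 48.3% to 52.6% of the probe sets of an array exceeded it. The 3′ to 5′ signal ratio of ACTB was 1.18 to 1.36 and that of GAPDH 0.939 to 1.13. Of 13 measured monocyte markers, 11 were above the floor on all arrays, with a summed signal of 14439 in control and 11198 to 17784 in heated cells. MPO and FCGR1A were at the floor throughout. No T cell marker of 6 was above the floor on all arrays, and their sum was 40.6 in control and 27.7 to 65.8 after heat. Of 5 B cell markers, 2 were above it on all arrays, with sums of 93.0 and 77.3 to 154. The 8 epithelial and fibroblast markers had sums of 32.6 in control and 47.5 to 335 after heat, of which COL1A1 made 8.37 in control and up to 268 at 6 h after 42 °C. EPCAM, KRT19, CDH1 and COL1A2 stayed at the floor. The part of these markers in the results below was not tested.

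IER5 rose in 7 of 8 heated arrays and did not rise at the end of the 44 °C heating. Its scaled signal was 524 in control cells. After 42 °C it was 3830 at 0 h, 4810 at 1 h, 6652 at 3 h and 3506 at 6 h. After 44 °C it was 471 at 0 h, 2725 at 1 h, 4847 at 3 h and 4894 at 6 h. The control and the 44 °C array at 0 h stood together at the bottom, and the other 7 arrays lay well above them.

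At 42 °C the IER5 folds over control were 7.31, 9.18, 12.7 and 6.69 at 0, 1, 3 and 6 h, or 2.87, 3.20, 3.67 and 2.74 on the log2 scale. At 44 °C the gene was 1.11-fold lower than control at 0 h and then 5.20-, 9.25- and 9.34-fold higher at 1, 3 and 6 h, or -0.15, 2.38, 3.21 and 3.22 on the log2 scale. At the end of the 42 °C heating, 6 of all genes had a higher fold than IER5. Over the 9 arrays its signal spanned 14.1-fold, and it ranked 18 among all genes by that span. At the end of the 42 °C heating the signal already stood at 57.6% of the gene's highest, reached at 3 h, and after 44 °C the gene passed 2-fold over control only in the recovery arrays.

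IER2 fell after 42 °C and less regularly after 44 °C. Its scaled signal was 1822 in control cells. After 42 °C it was 472, 644, 669 and 1121 at 0, 1, 3 and 6 h. After 44 °C it was 1289, 2074, 801 and 992 at the same times. Of the heated arrays, 7 of 8 were below control, and the exception was the 44 °C array at 1 h.

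The IER2 signal was 3.86-fold lower than control at 0 h after 42 °C, 2.83-fold at 1 h, 2.72-fold at 3 h and 1.63-fold at 6 h (log2 values of -1.95, -1.50, -1.45 and -0.70). After 44 °C it was 1.41-fold lower at 0 h, 1.14-fold higher at 1 h, 2.27-fold lower at 3 h and 1.84-fold lower at 6 h (log2 values of -0.50, 0.19, -1.18 and -0.88). It thus passed 2-fold downwards at 3 of 4 times after 42 °C and at 1 of 4 times after 44 °C. At 0 h after 42 °C, 22 of all genes had a lower fold. IER2 spanned 4.39-fold over the 9 arrays, rank 301 by span.

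IER3 rose in the middle of the recovery. Its scaled signal was 150 in control cells. After 42 °C it was 181, 472, 434 and 229 at 0, 1, 3 and 6 h. After 44 °C it was 77.4, 275, 590 and 273. The array at 0 h after 44 °C was the lowest of the 9, and the other 7 heated arrays were above control.

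Against control, IER3 was 1.21-, 3.16-, 2.90- and 1.53-fold higher at 0, 1, 3 and 6 h after 42 °C (log2 values of 0.28, 1.66, 1.54 and 0.61). After 44 °C it was 1.93-fold lower at 0 h and then 1.84-, 3.94- and 1.82-fold higher (log2 values of -0.95, 0.88, 1.98 and 0.87). The highest signal came at 1 h after 42 °C and at 3 h after 44 °C. After 42 °C, however, the signals at 1 and 3 h were only 1.09-fold apart. The log2 step between them was -0.12, and -0.59 to 0.001 over the alternatives, so their order is not settled. Its span of 7.62-fold ranked 62.

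IER5L was dim and, by its brighter probe set, stayed within 2-fold of control in all 8 heated arrays. That probe set, 226552_at, gave a scaled signal of 36.6 in control, then 23.8, 39.7, 52.3 and 44.0 at 0, 1, 3 and 6 h after 42 °C and 28.2, 56.4, 42.7 and 64.7 after 44 °C. Its log2 folds over control were -0.62, 0.12, 0.52 and 0.27 after 42 °C and -0.38, 0.62, 0.22 and 0.82 after 44 °C. Both arrays at 0 h were below control, and the 6 recovery arrays were above it.

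The other IER5L probe set, 226559_at, gave 42.6 in control, 29.8, 56.6, 68.8 and 55.2 after 42 °C and 19.5, 26.1, 41.0 and 43.6 after 44 °C. Its log2 folds were -0.51, 0.41, 0.69 and 0.38 after 42 °C and -1.13, -0.70, -0.05 and 0.04 after 44 °C. The probe sets had the same sign at all 4 times after 42 °C and opposite signs at 1 and 3 h after 44 °C, and their log2 signals correlated with r = 0.45 over the 9 arrays. The course of IER5L after 44 °C therefore depends on the probe set. By its brighter probe set it spanned 2.71-fold and ranked 1624, and by the other it spanned 3.53-fold.

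**Figure D1:**
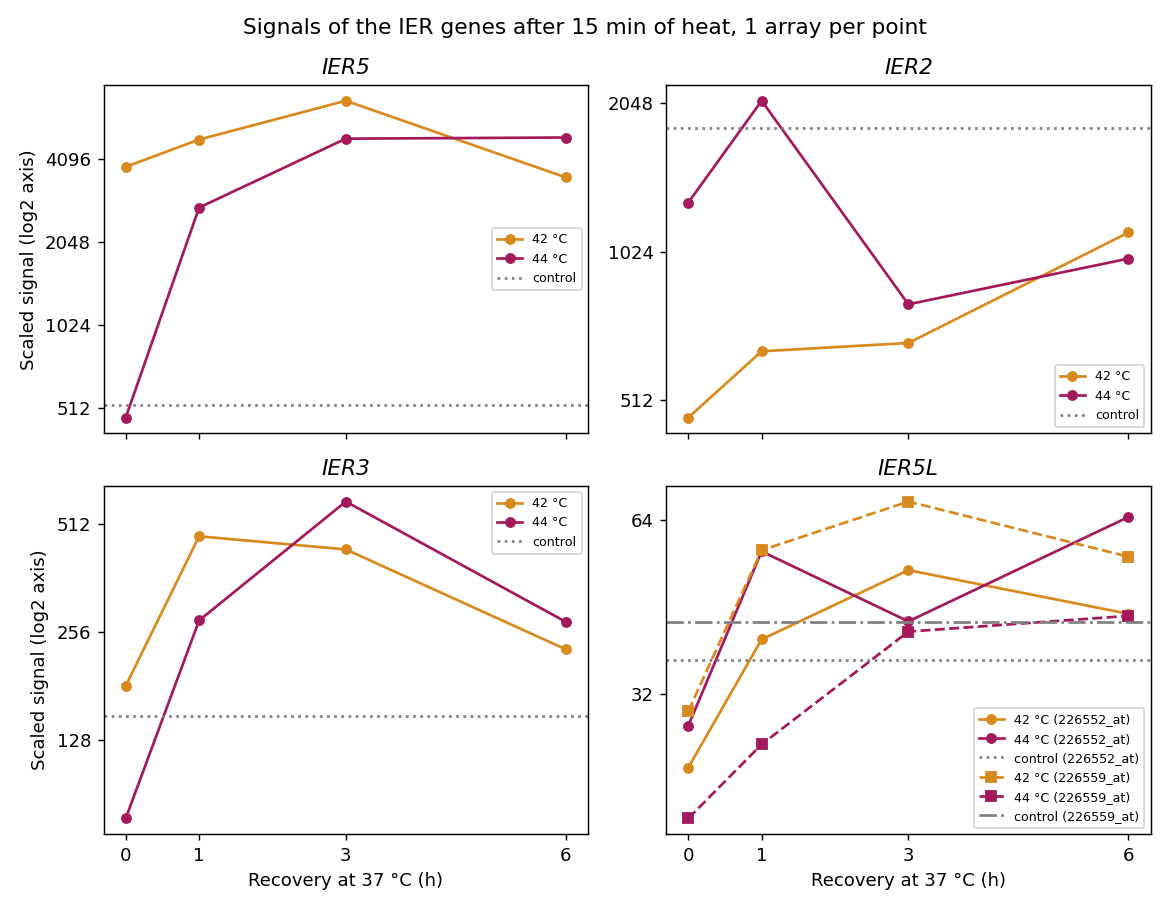
Scaled signals of the 4 IER genes (log2 axis) against hours of recovery at 37 °C, with 1 array per point, lines for 42 °C and 44 °C and a horizontal line for the control array; IER5L is drawn for both probe sets. IER5 at 0 h was 3830 after 42 °C and 471 after 44 °C, beside 524 in control, while IER2 after 42 °C stayed below its control signal of 1822.

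Read against all genes, the counts past 2-fold were as follows. At 0 h after 42 °C, 1 of 4 members rose and 1 fell, where 3.34% of the 19775 genes passed 2-fold in either direction. At 1 h it was 2 up and 1 down (3.42% of all genes), at 3 h 2 up and 1 down (5.07%), and at 6 h 1 up (4.97%). After 44 °C, 0 of 4 passed at 0 h (1.89% of all genes), 1 rose at 1 h (1.38%), 2 rose and 1 fell at 3 h (2.57%), and 1 rose at 6 h (5.15%). Among the 8817 genes at least as bright as the dimmest member, 1.13% to 7.59% passed 2-fold over all 18 comparisons made. The median log2 fold of all genes was 0.00 in each of them. These folds chose the family in part, so nothing is read from the counts.

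The temperatures were next compared at the same recovery time, which does not use the control array. At 0 h, IER5 was 8.13-fold lower after 44 °C than after 42 °C, IER3 was 2.34-fold lower and IER2 was 2.73-fold higher. Among all genes, 4 had a lower fold than IER5 there. At 1 h, IER2 was 3.22-fold higher after 44 °C, and IER5, IER3 and the brighter IER5L probe set were within 2-fold, while the other IER5L probe set was 2.17-fold lower. At 3 and 6 h, all 4 members were within 2-fold.

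On the log2 scale, 44 °C minus 42 °C was -3.02, -0.82, -0.46 and 0.48 for IER5 at 0, 1, 3 and 6 h. For IER2 it was 1.45, 1.69, 0.26 and -0.18, and for IER3 it was -1.22, -0.78, 0.44 and 0.25. IER5L gave 0.24, 0.51, -0.29 and 0.56 by 226552_at and -0.62, -1.12, -0.75 and -0.34 by 226559_at. The gaps in IER5 and IER2 were widest at 0 and 1 h and narrowed later. Of the 4 members, 1 rose and 2 fell at 0 h (2.35% of all genes past 2-fold) and 1 rose at 1 h (2.28%). None passed at 3 h (2.00%) or 6 h (2.22%).

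**Figure D2:**
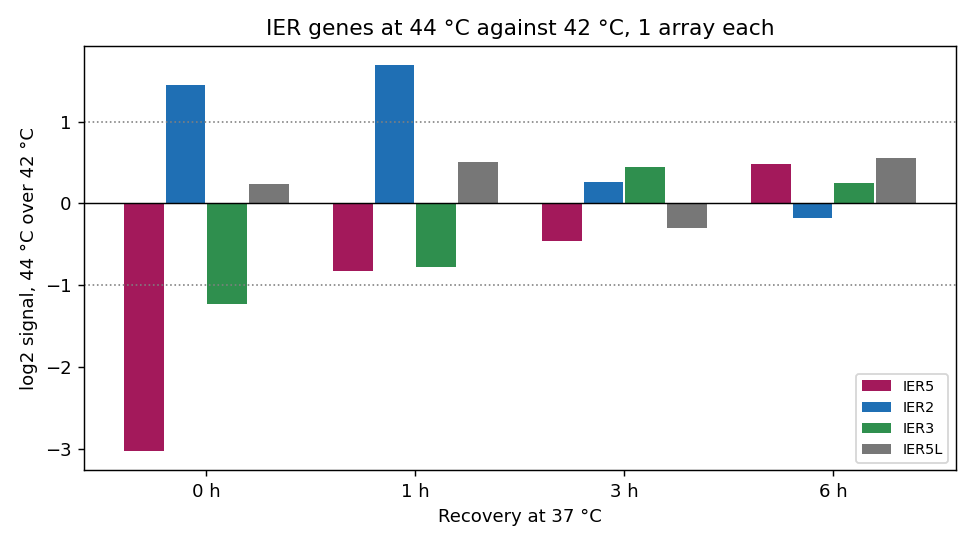
Bars give the log2 signal after 44 °C over that after 42 °C for each IER gene at each recovery time, 1 array each, and dotted lines mark 2-fold. At 0 h IER5 stood at -3.02 and IER2 at 1.45, and at 3 and 6 h all 4 genes lay within the lines.

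Consecutive arrays of 1 temperature showed where in the recovery the members moved. Between 0 and 1 h after 42 °C, IER3 rose by 1.38 on the log2 scale, and IER5 (0.33), IER2 (0.45) and IER5L (0.74) stayed within 2-fold, where 2.51% of all genes passed. No member passed 2-fold from 1 to 3 h (2.26% of all genes) or from 3 to 6 h (3.57%). The values from 3 to 6 h were -0.92 for both IER5 and IER3 and 0.74 for IER2. The step from 0 to 1 h was larger after 44 °C for IER5, IER3 and IER2.

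Between 0 and 1 h after 44 °C, 3 of 4 members rose, where 2.29% of all genes passed 2-fold. IER5 rose by 2.53 and IER3 by 1.83 on the log2 scale, IER5L by 1.00, at the threshold, and IER2 differed by 0.69. The other IER5L probe set gave 0.42 for this step. From 1 to 3 h, IER3 rose by 1.10 and IER2 fell by 1.37 on the log2 scale, with IER5 at 0.83 (1.24% of all genes). From 3 to 6 h, IER3 fell by 1.11 on the log2 scale, IER5 differed by 0.01 and IER2 by 0.31 (2.17%). IER3 thus went up and down within 6 h after 44 °C, and IER5 stayed at its level of 3 h.

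The genes whose courses were most like those of the members were taken as the 5 highest Pearson correlations of log2 signal over the 9 arrays, among 3493 genes above the floor on all arrays that spanned at least 2-fold. The arrays share their time courses and the correlations are a description. For IER5 these genes were HSPA6 (r = 0.995) and DNAJB1 (0.990), both heat-inducible chaperone genes, RGS2 (0.987), a regulator of G protein signalling, PPP1R15A (0.980), a stress-induced subunit of the phosphatase PP1, and BAG3 (0.975), a co-chaperone. Without the control and the 44 °C array at 0 h, r for these 5 genes was 0.852 to 0.971 over 7 arrays.

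The sizes of the folds differed between these genes. At 0 h after 42 °C, the log2 fold over control was 5.10 for HSPA6, 3.05 for DNAJB1, 3.18 for BAG3, 2.85 for RGS2 and 1.48 for PPP1R15A, beside 2.87 for IER5. At 0 h after 44 °C it was -0.07, 0.44, -0.17, 0.16 and 0.13 in the same order, beside -0.15 for IER5. At 3 h after 44 °C it was 5.59 for HSPA6, 3.17 for DNAJB1, 4.03 for BAG3, 3.78 for RGS2 and 1.74 for PPP1R15A. All 5 genes were within 2-fold of control at the end of the 44 °C heating and past 2-fold by 1 h after it.

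Their promoter windows differ. HSPA6 held GAACCTTC from 180 to 173 and GAAAGTTC from 69 to 62 bases before its start, with TTCGCGAA from 74 to 67 overlapping the latter. Windows of DNAJB1 held GAAGGTTC from 77 to 70 and GAAGCTTC from 47 to 40 bases before a start. BAG3, RGS2 and PPP1R15A held neither motif in theirs.

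**Figure D3:**
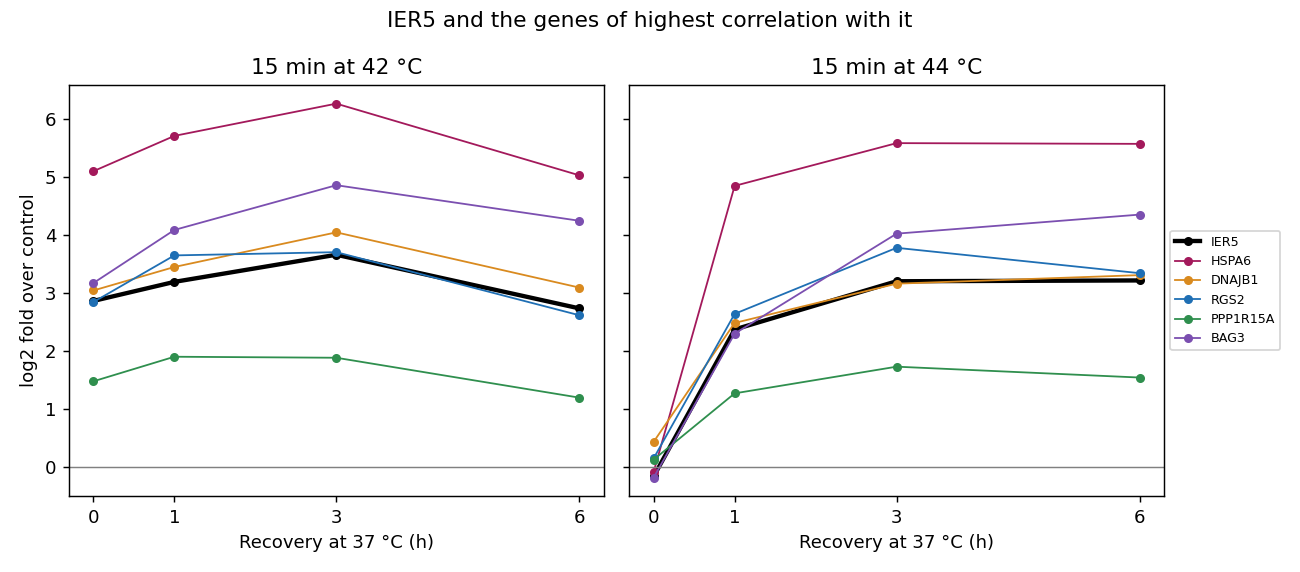
Log2 fold over the control array of IER5 (thick line) and the 5 genes of highest correlation with it, against hours of recovery at 37 °C after 42 °C (left) and 44 °C (right), 1 array per point. All 6 genes lay above the 2-fold mark of 1 at 0 h after 42 °C and between -0.17 and 0.44 at 0 h after 44 °C.

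For IER2 the 5 genes were CARD8-AS1, an antisense transcript (0.959), P2RY8, a G protein-coupled receptor (0.925), NRROS, a regulator of reactive oxygen species in myeloid cells (0.922), SLC41A2, a magnesium transporter (0.919), and TRIM13, a ubiquitin ligase (0.912). At 0 h after 42 °C these fell by 1.49, 1.16, 1.99, 1.13 and 1.26 on the log2 scale, beside -1.95 for IER2. At 1 h after 44 °C they were within 2-fold of control, with log2 folds of 0.11, -0.35, -0.06, -0.20 and -0.08. With quantile-normalised signals, 3 of the 5 remained among the 5 highest.

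For IER3 the 5 genes were ATF3, a stress-induced transcription factor (0.991), TRIB1, a pseudokinase (0.982), DLX2, a homeobox factor (0.945), RNA45SN5, a ribosomal RNA precursor (0.942), and DUSP1, a phosphatase of MAP kinases (0.933). At 3 h after 44 °C their log2 folds over control were 2.70, 2.68, 0.83, 3.27 and 4.08, beside 1.98 for IER3. At 0 h after 44 °C they were -1.18, -1.03, -0.68, -1.03 and -0.42, beside -0.95 for IER3. These values are those of the brightest probe set of each gene. At 3 h after 44 °C the 2 other probe sets of ATF3 gave 0.44 to 2.05, those of TRIB1 0.00 to 0.70 and those of DUSP1 -0.88 to 1.78.

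For IER5L, by its brighter probe set, they were WBP2 (0.965), a coactivator with a WW-binding motif, TGFA (0.954), a ligand of the EGF receptor, BPGM (0.939), a bisphosphoglycerate mutase, FRMD4B (0.938), a FERM domain protein, and PIM1 (0.933), a serine and threonine kinase. Of these, PIM1 at 6 h after 44 °C, with a log2 fold of 1.40, was the only value past 2-fold over control in any of the 8 heated arrays.

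Between members, r over the 9 arrays was 0.84 for IER5 with IER3, -0.62 for IER5 with IER2 and -0.40 for IER2 with IER3. IER5L, by its brighter probe set alone, gave 0.46 with IER5, 0.54 with IER3 and 0.31 with IER2. From 0 to 1 h of recovery, however, the log2 steps of IER5, IER3 and IER2 were all above 0 at both temperatures, and at 0 h after 44 °C all 3 were below control.

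The pathways that control or bind the family were described by their counts. Of 26 measured HSF1 target genes, which encode mainly chaperones and co-chaperones, 14, 16, 19 and 19 rose at 0, 1, 3 and 6 h after 42 °C and none fell. After 44 °C, 0, 7, 13 and 17 rose and none fell. Of all genes, 3.34%, 3.42%, 5.07% and 4.97% passed 2-fold in either direction at these times after 42 °C. After 44 °C the shares were 1.89%, 1.38%, 2.57% and 5.15%. The median log2 fold of the list was 1.03, 1.32, 1.89 and 1.73 after 42 °C and 0.13, 0.32, 1.01 and 1.64 after 44 °C, where the median of all genes was 0.00. With 44 °C set against 42 °C, 9, 12, 5 and 0 of these genes were lower past 2-fold at 0, 1, 3 and 6 h, and none was higher. Between temperatures, 2.35%, 2.28%, 2.00% and 2.22% of all genes passed 2-fold in either direction at these times. Among the 22 HSF1 target genes that could be compared, the median r with IER5 was 0.81 and 11 (50%) exceeded 0.8, beside 2.92% of all compared genes. Their median r was -0.62 with IER2, 0.56 with IER3 and 0.38 with the brighter IER5L probe set, beside 0.19, -0.10 and 0.03 over all compared genes. IER5 had been singled out as an HSF1 target and the lists were chosen with earlier results of these data known. The r values of this and the later lists are therefore a description only. They were not recomputed without the control and the 44 °C array at 0 h. Only the first listed window of each gene was counted for the lists. Of the 28 HSF1 target genes with promoter windows, 12 (42.9%) held a heat shock motif in it, beside 4 of 10 housekeeping genes and 2 of 31 serum response genes. DNAJB1 was thereby counted as without a motif, since its matches lie in its other windows.

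HSF1 itself, the factor that IER5 acts on, had log2 folds over control of 0.07, 0.18, -0.14 and -1.05 after 42 °C and 0.12, 0.03, -0.21 and -0.69 after 44 °C. At 6 h after 42 °C its other probe set gave 0.40. Of the 11 protein partners of the family, which are HSF1, CDC25B, IER3IP1 and the subunits of PP2A-B55, none rose over control. A fall occurred in HSF1 at 6 h after 42 °C and in the B55 subunit PPP2R2D at 6 h after 44 °C (log2 fold -1.02), for which another probe set gave 2.09. For each of these falls the other probe set had the opposite sign, and other probe sets are given only for these genes. PPP2R2C, with a control signal of 10.9, below the floor of 12.5, could not show a fall. Of all genes, 1.38% to 5.15% passed 2-fold over control on the heated arrays. With so low a share, a list of 11 genes would hold few calls in any case, so nothing is read from these counts.

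Of 39 measured serum response genes, 3, 11, 11 and 7 rose and 9, 4, 4 and 3 fell at 0, 1, 3 and 6 h after 42 °C. After 44 °C, 1, 10, 13 and 9 rose and 7, 0, 3 and 2 fell. Of all genes, 3.34%, 3.42%, 5.07% and 4.97% passed 2-fold in either direction at these times after 42 °C. After 44 °C the shares were 1.89%, 1.38%, 2.57% and 5.15%. At 0 h, 184 of all genes rose and 476 fell after 42 °C, and 169 rose and 204 fell after 44 °C. The list median was 0.00 at all 4 times after 42 °C, where the middle gene was at the floor on both arrays. After 44 °C it was -0.30, 0.31, 0.37 and 0.19 at 0, 1, 3 and 6 h. MYC, the growth-promoting transcription factor with the highest r of the list with IER2 (0.89), had log2 folds of -2.35, -2.47, -2.36 and -1.38 after 42 °C and -0.28, -0.71, -1.99 and -1.86 after 44 °C. FOS, a subunit of the AP-1 factor, had 0.56, 1.10, 1.58 and 1.11 after 42 °C and 0.80, 0.79, 1.35 and 1.60 after 44 °C. JUN, its partner, fell by 1.23 on the log2 scale at 0 h after 42 °C and by 1.81 at 0 h after 44 °C. JUN was above control by 1.16 at 1 h and by 1.59 at 3 h after 44 °C. EGR1, a zinc finger factor, was within 2-fold of control except for -1.31 at 6 h after 44 °C.

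The serum response genes did not follow a single course. Of the 25 that could be compared, 7 (28.0%) had r above 0.8 with IER3, beside 1.83% of all compared genes, with a median r of 0.60. With IER2 it was 2 of 25 (8%, beside 3.15% of all compared genes) and a median r of 0.25, where that of all compared genes was 0.19. With IER5 it was 4 of 25 (16%, beside 2.92%) and a median of 0.24, beside -0.18. With the brighter IER5L probe set it was 2 of 25 (8%, beside 4.01%) and a median of 0.45, beside 0.03, and KLF6 was highest (0.91).

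SRF, the serum response factor, had log2 folds of -1.10, -1.42, -1.01 and -0.66 after 42 °C and -0.49, -0.90, -1.16 and -0.98 after 44 °C. Its other probe set gave -0.48, -0.23 and -0.80 at 0, 1 and 3 h after 42 °C and -0.09 at 3 h after 44 °C. Of the 6 genes of SRF and its cofactors, 2, 1, 2 and 0 fell after 42 °C and 0, 0, 3 and 0 after 44 °C, and none rose. MRTFA and ELK4, cofactors of SRF, were the others that fell. The SRF falls in these counts are those of its brighter probe set, and none passed 2-fold by the other. Of all genes, 1.38% to 5.15% passed 2-fold over control on the heated arrays. The 6 other ELK4 probe sets gave -2.55 to 0.09 at 3 h after 42 °C and -0.72 to 0.03 at 3 h after 44 °C. The 4 others of MRTFA gave -0.07 to 0.87 at 0 h after 42 °C and -0.21 to 0.00 at 3 h after 44 °C.

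**Figure D4:**
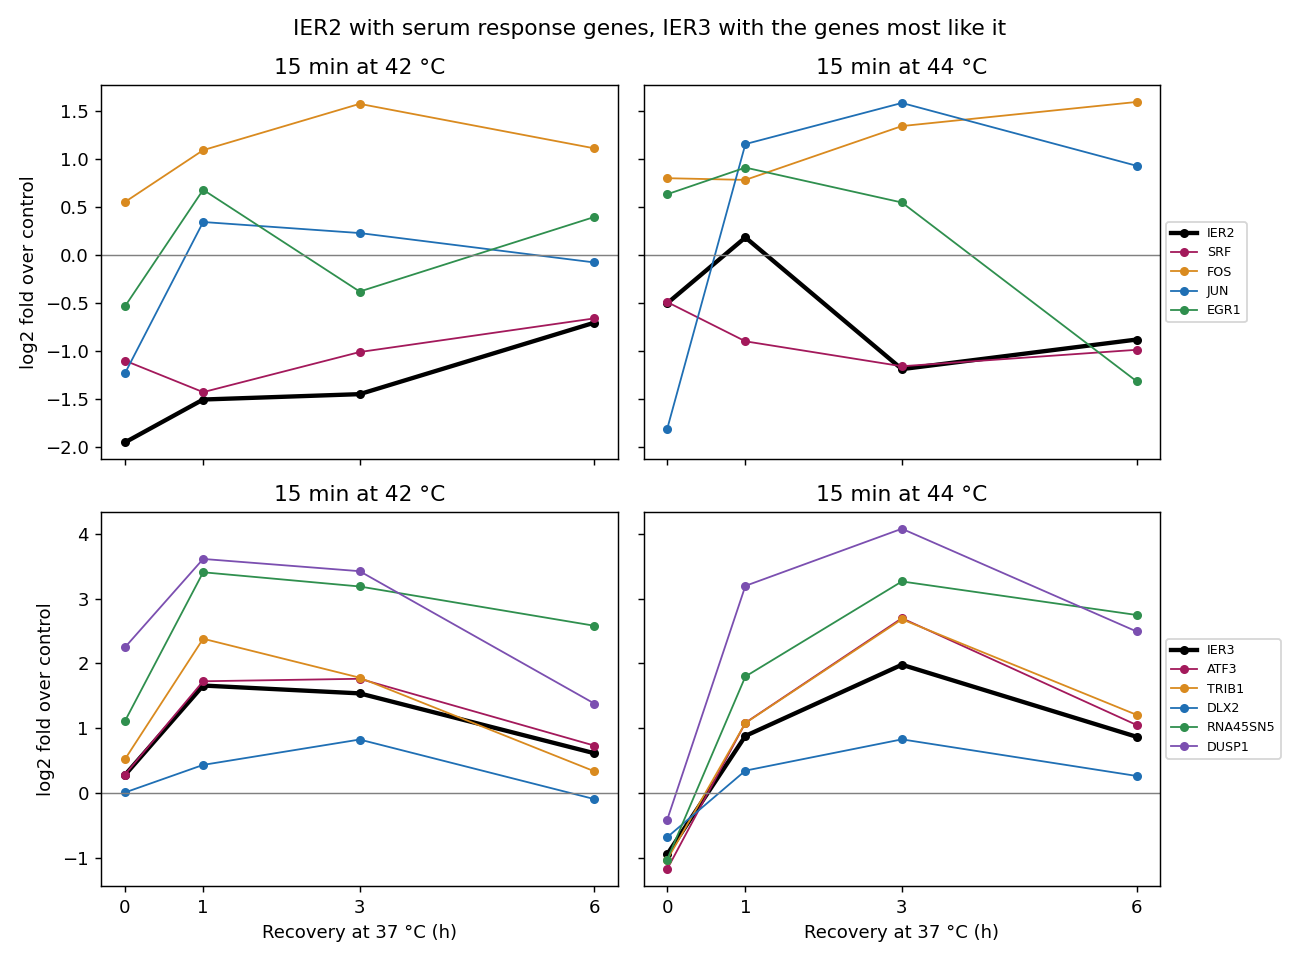
Log2 fold over the control array against hours of recovery at 37 °C after 42 °C (left) and 44 °C (right), 1 array per point: IER2 with SRF, FOS, JUN and EGR1 above, and IER3 with the 5 genes of highest correlation with it below. IER2 was at -1.95 where FOS was at 0.56 (0 h after 42 °C), and IER3 and ATF3 peaked at 1.98 and 2.70 at 3 h after 44 °C.

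For IER3 the lists of its known regulators were also counted. Of all genes, 3.34%, 3.42%, 5.07% and 4.97% passed 2-fold in either direction at 0, 1, 3 and 6 h after 42 °C. After 44 °C it was 1.89%, 1.38%, 2.57% and 5.15%. Of 18 measured genes of NF-kB feedback and response, 2, 2, 4 and 1 rose and 3, 1, 2 and 1 fell after 42 °C, and 1, 1, 3 and 2 rose and 1, 0, 0 and 1 fell after 44 °C. Over the alternatives the rises numbered 0 to 4 at 3 h after 42 °C and 0 to 2 at 6 h after 44 °C. TNFAIP3, an inhibitor of NF-kB signalling, rose by 2.15 on the log2 scale at 1 h after 42 °C, while the chemokine gene CCL2 fell by 1.98. Of 16 measured p53 target genes, 0, 3, 3 and 3 rose and 2, 0, 1 and 0 fell after 42 °C, and 0, 0, 4 and 5 rose and 1, 0, 0 and 0 fell after 44 °C. Over the alternatives the falls at 6 h after 42 °C numbered 0 to 4. PMAIP1, which encodes the proapoptotic protein NOXA, rose by 1.64 on the log2 scale at 1 h after 42 °C and by 1.42 at 3 h after 44 °C, with r = 0.93 with both IER5 and IER3. The cell cycle inhibitor CDKN1A fell by 2.78 on the log2 scale at 0 h after 44 °C and was 1.31 above control at 3 h. Its signal on that 0 h array was 15.4, close to the floor of 12.5. Of 9 p53 targets that could be compared, 3 (33.3%) had r above 0.8 with IER3 and 3 with IER5 (medians 0.45 and 0.58). Of 9 NF-kB genes it was 1 (11.1%) with each (medians 0.35 and 0.45). Over all compared genes it was 1.83% with IER3 and 2.92% with IER5.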

How the data were processed

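The authors deposited 1 linear intensity value for each probe set on each of 9 arrays. Per the submitters' processing notes these are MAS5 signals, whose scaling target is not given in the sources used here. Arrays were brought to a trimmed mean of 100 (factors 0.474 to 0.989) over 54613 probe sets without controls, with 2% trimmed at each end, which leaves differences in the shape of the distributions. A floor of 12.5, the overall median after scaling, replaced lower values before the log2 transform. For each of 19775 genes, the probe set with 1 gene symbol and the highest mean log2 signal was used. Groups came from the labels, the 18 comparisons (8 with control, 4 between temperatures, 6 between consecutive times) used 1 array per group with no test, and a gene was called at 2-fold. Columns of other samples numbered 0.

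The members and the 13 gene lists were chosen with earlier results of these data known. Named were the members, the 5 genes of highest correlation with each, up to 4 genes of largest fold per list and comparison among those past 2-fold, and HSPA6, DNAJB1, BAG3, FOS, JUN, EGR1, HSF1 and SRF throughout. KLF6 and PMAIP1 correlations were named as the highest of their lists. COL1A1 was named after its values were seen. Alternatives were quantile normalisation, a common median, no scaling, floors at the 25th and 70th percentile, the median over probe sets, and the 0 h array as baseline. The scripts were tested on simulated data and used Python 3.11.15, pandas 2.3.3, NumPy 2.4.6, SciPy 1.17.1 and Matplotlib 3.10.9.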

Additional observations from a re-analysis of the deposited data

Results flagged for a closer look

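By the probe set used for each gene, the arrays at the same recovery time lay on opposite sides of control at 42 and 44 °C for 3 member values. IER5 at 0 h was higher than control after 42 °C and lower after 44 °C, a difference of -3.02 on the log2 scale (44 °C minus 42 °C). IER3 at 0 h was likewise higher after 42 °C and lower after 44 °C, with a difference of -1.22. IER2 at 1 h was lower after 42 °C and higher after 44 °C, with a difference of 1.69. With 1 array per condition these differences were not tested, and of the folds over control behind them, those of IER5 at 0 h after 44 °C (-0.15), IER3 at 0 h after 42 and 44 °C (0.28 and -0.95) and IER2 at 1 h after 44 °C (0.19) were below 2-fold. The other IER5L probe set, 226559_at, also lay on opposite sides of control. At 1 h it was 0.41 after 42 °C and -0.70 after 44 °C, a difference of -1.12. At 3 h it was 0.69 and -0.05, and neither difference was tested.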

How the results depend on the processing

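Of 456 recomputed log2 folds of the members, 425 kept their side of 2-fold and, where called, their direction, 20 came to pass 2-fold, 8 no longer did and 3 reversed; the cause was not tested except where stated. The 42 and 44 °C arrays of the same recovery time were compared as 4 differences per gene, with no test across them. The other alternatives left IER5 past 2-fold in the same 7 heated arrays over control, except that the baseline of the 0 h array of the same temperature, which after 42 °C already held the rise, gave IER5 0.33 at 1 h, 0.80 at 3 h and -0.13 at 6 h after 42 °C. With that baseline IER2 was 0.45, 0.50 and 1.25 at 1, 3 and 6 h after 42 °C and -0.69 at 3 h after 44 °C, IER5L was 1.13 at 3 h after 42 °C and 1.00 and 1.20 at 1 and 6 h after 44 °C, and IER3 was 1.83 and 1.82 at 1 and 6 h after 44 °C. Without scaling, which moved the median of all genes by -0.26 to 0.58, IER3 was 0.83 at 3 h after 42 °C and 1.23 and 1.07 at 1 and 6 h after 44 °C. IER2 was then -1.31 at 6 h after 42 °C and -0.88 at 3 h after 44 °C, and IER5L was 1.03 at 6 h after 44 °C. For 44 °C against 42 °C, no scaling gave IER5L 1.10 at 1 h, IER2 1.28 and IER3 1.46 at 3 h, and IER5 1.30, IER5L 1.37 and IER3 1.07 at 6 h. The members past 2-fold without scaling numbered 2 at 6 h after 42 °C, 2 and 3 at 1 and 6 h after 44 °C, and 2, 2 and 3 at 1, 3 and 6 h between temperatures. A common median gave IER3 -1.07 at 0 h after 44 °C (1 member past 2-fold), IER5 and IER3 -1.11 from 3 to 6 h after 42 °C (2 members) and IER5 1.02 from 1 to 3 h after 44 °C. The IER5L step from 0 to 1 h after 44 °C was 0.99 with quantile normalisation, 0.00 with the 70th percentile floor, under which the other probe set was used and was at the floor on both arrays, and 0.71 by the median over probe sets.

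Over the alternatives, the count of HSF1 target genes that rose was 14 to 20 at 3 h after 42 °C (19) and 5 to 8 at 1 h after 44 °C (7). Serum response genes that rose were 0 to 5, 7 to 12, 6 to 12 and 2 to 8 at 0, 1, 3 and 6 h after 42 °C (3, 11, 11 and 7) and 0 to 1, 4 to 12 and 8 to 15 at 0, 1 and 3 h after 44 °C (1, 10 and 13). Those that fell were 2 to 6, 2 to 12 and 1 to 7 at 1, 3 and 6 h after 42 °C (4, 4 and 3) and 3 to 9 and 1 to 3 at 0 and 3 h after 44 °C (7 and 3). NF-kB genes that rose were 0 to 4 and 0 to 2 at 3 and 6 h after 42 °C (4 and 1) and 0 to 2 at 6 h after 44 °C (2), and those that fell were 1 to 4 at 3 h after 42 °C (2). Of p53 targets, 1 to 4 rose at 6 h after 42 °C (3), 0 to 2 rose at 1 h after 44 °C (0), and 0 to 4 fell at 3 and at 6 h after 42 °C (1 and 0). Of the protein partners, 0 to 2 and 0 to 3 fell at 3 and 6 h after 42 °C (0 and 1). Other counts of these lists that moved over 1.5 times did so by 1 gene. Quantile normalisation moved the share of rises among all genes past 2-fold from 27.9% to 38.8% at 0 h after 42 °C, from 55.4% to 44.5% at 1 h after 42 °C, from 45.2% to 55.6% at 3 h after 44 °C, from 67.9% to 50.6% at 0 h and from 38.3% to 60.4% at 6 h between temperatures. Between consecutive arrays it moved from 83.1% to 58.5%, 30.3% to 55.0% and 66.3% to 46.4% after 42 °C, and from 40.7% to 63.3% from 1 to 3 h after 44 °C. The correlations over 7 arrays were added after seeing the data.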
